A study of Mus musculus with 2 samples.

Results

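The genes described here encode parts of the motile cilium: 71 of the 32285 genes listed for 2 sections of mouse brain. They were chosen by name. A gene was taken if its symbol begins with Dnah, Dnaic, Dnai, Dnal, Cfap, Rsph, Tekt, Drc, Spef or Dnaaf followed by a number, or if it is Foxj1, Ccdc153, Tmem212 or Dynlrb2. It also needed at least 30 unique molecular identifiers (UMIs, counted RNA molecules) over both sections. Of 80 symbols that matched, 71 reached this minimum; Cfap53, with 34 UMIs, was the nearest above it, and Dnah12, with 29 UMIs, the nearest below.

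Both sections came from wild-type C57BL/6 brain, labelled ZT12 (zeitgeber time, hours after lights on) and replicates 1 and 2, cut fresh frozen at 10 µm. There was no treatment and no second genotype. The study's stated interest was how brain regions differ in their RNA and protein. The assay was 10x Visium, in which RNA is captured on an array of barcoded spots, each a small piece of tissue that can hold several cells of different types. Whether 2 animals were used is not stated. The p-values below rest on how differences between groups of spots vary between 2 sections, with information on that variation shared across genes. This variation may be technical and is not known to cover any spread between animals.

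Motile cilia beat through a microtubule core, the axoneme. Axonemal dynein motors slide its outer microtubules, radial spokes and the central pair pass regulatory signals to them, and the nexin-dynein regulatory complex links neighbouring microtubules. The transcription factor FOXJ1, together with RFX factors, drives the genes of the motile cilium. In the brain, ependymal cells line the ventricles with tufts of motile cilia that move cerebrospinal fluid, and the epithelium of the choroid plexus carries cilia as well. Many axonemal genes are also known from sperm tails, and several Cfap genes are used outside motile cilia.

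Promoters are shown for 3 genes that were high in ependymal and choroid plexus spots, Ccdc153, Dynlrb2 and Tmem212, and for Cfap298, which was measured throughout the brain, because RFX factors bind a motif called the X-box. Each window runs from 250 bases before to 50 bases after the gene's annotated start and comes from RefSeq on GRCm38.p6. The windows are chr9:44240427-44240726 (plus strand) for Ccdc153, chr8:116504765-116505064 (plus strand) for Dynlrb2, chr16:90934800-90935099 (minus strand) for Cfap298 and chr3:27896319-27896618 (minus strand) for Tmem212. Capitals mark the X-box GTTNCCNNGGNAAC or its arm GTTGCC, searched on both strands, so that an arm on the opposite strand reads GGCAAC.

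Ccdc153: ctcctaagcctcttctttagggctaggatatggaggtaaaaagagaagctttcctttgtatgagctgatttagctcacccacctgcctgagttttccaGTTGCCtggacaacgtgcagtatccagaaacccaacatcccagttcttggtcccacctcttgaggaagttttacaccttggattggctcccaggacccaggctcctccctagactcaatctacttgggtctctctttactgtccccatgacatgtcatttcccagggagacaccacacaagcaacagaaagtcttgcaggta

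Dynlrb2: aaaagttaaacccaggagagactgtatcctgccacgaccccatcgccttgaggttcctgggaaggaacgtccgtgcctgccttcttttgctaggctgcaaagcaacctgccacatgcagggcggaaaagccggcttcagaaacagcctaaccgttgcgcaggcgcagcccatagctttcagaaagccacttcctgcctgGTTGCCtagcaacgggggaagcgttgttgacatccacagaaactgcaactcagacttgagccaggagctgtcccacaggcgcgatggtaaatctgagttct

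Cfap298: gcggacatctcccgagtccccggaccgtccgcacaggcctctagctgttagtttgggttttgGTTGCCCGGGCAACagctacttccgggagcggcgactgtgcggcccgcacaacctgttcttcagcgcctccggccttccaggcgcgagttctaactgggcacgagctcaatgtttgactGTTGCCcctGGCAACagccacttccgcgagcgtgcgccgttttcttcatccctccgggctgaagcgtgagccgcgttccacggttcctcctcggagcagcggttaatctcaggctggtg

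Tmem212: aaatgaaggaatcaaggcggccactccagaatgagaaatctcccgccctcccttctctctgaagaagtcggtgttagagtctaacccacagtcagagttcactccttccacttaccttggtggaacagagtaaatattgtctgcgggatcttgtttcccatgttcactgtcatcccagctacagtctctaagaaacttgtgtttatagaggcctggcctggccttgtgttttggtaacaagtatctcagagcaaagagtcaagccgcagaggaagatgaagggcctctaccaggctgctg

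The arm began at position -152 from the start in Ccdc153 and at position -51 in Dynlrb2, and the Tmem212 window held none. Windows were at hand for 59 of the 71 genes. The arm was present in 25 of these 59 (42.4%), against 14.1% of the 27025 genes with a window. The whole X-box, which overlaps the arm where it begins with GTTGCC, was found only in Cfap298 among the 59, against 0.529% of all genes. The forkhead motif GTAAACA was present in 2 of the 59 (3.39%), Cfap20 and Cfap43, against 4.05% of all genes. A match describes letters in these windows and does not show that a factor binds there.

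Spots were placed in 3 classes by genes that are not among the 71. Choroid plexus rich spots had at least 5 of 13 choroid plexus genes, such as Folr1, Kl and Clic6, at 5 or more UMIs per 10000. Ependymal spots were the top 2% of the remaining spots of each section by 12 genes, among them Rarres2, Mia, Fam183b, Odf3b and Meig1. The lowest spots picked had 2.40 and 2.43 UMIs of these genes per 10000 in sections 1 and 2. A shallow spot reaches this on few UMIs, so the pick can favour shallow spots. Most of these 12 are themselves known from ciliated cells, so the picking itself favours spots rich in other cilium genes. There were 60 ependymal, 24 choroid plexus rich and 2946 other spots in section 1, and 50, 41 and 2440 in section 2. The 12 genes summed to 672 and 609 counts per 1000000 UMIs (CPM) in ependymal spots of sections 1 and 2, 574 and 514 CPM in choroid plexus rich spots, and 47.2 and 53.5 CPM in all other spots. The choroid plexus genes summed to 145 and 180, 2941 and 2061, and 47.2 and 51.0 CPM in the same order, so some choroid plexus RNA was present in the ependymal spots.

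The sections held 58662871 and 55851559 UMIs, and 3030 of 3167 and 2531 of 2533 spots passed a minimum of 500 UMIs. Ependymal spots were shallower than the rest, with medians of 9905 and 12842 UMIs, against 18270 and 21715 UMIs in other spots. They also differed in markers of other cells. The 9 oligodendrocyte markers summed to 22247 and 13853 CPM in ependymal spots, against 8928 and 8227 CPM in other spots, and all 9 were called higher, Opalin and Mog among them. Of 14 neuronal markers, 10 were called lower, including Snap25 and Nefl. Markers of vascular leptomeningeal cells were called higher for 5 of 7 tested of 10 listed, including Dcn and Mgp, microglial markers for 3 of 11 and astrocyte markers for 2 of 12, Gfap and Sox9. No endothelial marker of 9 tested was called. The part of these cells and of depth in the results below was not tested, and fewer cells of a type cannot be told apart from less RNA per cell. The 2 sections had 1965 spot barcodes in common, which the array design shares.

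Counts of all kept spots were summed per section and class, and each class difference was tested with edgeR's quasi-likelihood test with a term for the section. Adjusted p-values are Benjamini-Hochberg values over all 9629 genes tested, and genes under 0.05 are called. Fold changes from this test are on the log2 scale with their standard error (SE). Levels are in CPM and are compared between classes for 1 gene, not between genes of different length.

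In ependymal spots, 24 of the 71 axoneme genes were called higher than in all other spots and none lower; the background was 5.65% of tested genes higher and 1.98% lower. Only 36 of the 71 passed the filter on low counts (about 13.1 CPM in 2 of the 6 sums), and 27 of these passed only through ependymal or choroid plexus rich spots, so that the filter favoured genes that were high there. Without the filter, 36 of the 71 were called higher and none lower, against backgrounds of 2.77% and 2.08%. These backgrounds, and the limit set by the filter, also apply to the counts by gene group below. Counted without any test and with sections pooled, 22 were at least 10-fold higher and 23 were under 2-fold. Dnah8, Rsph6a and Cfap47, among the 23, had 0 ependymal UMIs. The median pooled ratio over all 71 was 4.84, against 0.99 over the 16349 genes with at least 30 UMIs. At least 2-fold were 48 of the 71 (67.6%), against 9.43% of those genes.

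Of the definition genes, Rarres2 and Mia are not known as cilium genes, but both were also high in choroid plexus rich spots. Mia had 147 and 120 CPM there, against 60.8 and 57.2 CPM in ependymal spots. Rarres2 had 143 and 115 CPM, against 202 and 164 CPM. When ependymal spots were picked by Rarres2 and Mia alone, the lowest spots had 1.54 and 1.33 UMIs of them per 10000. With this pick, 22 of the 24 were called again, 23 members were called higher in all (background 6.98%) and none lower (2.83%). With a minimum of 5000 UMIs per spot, an alternative chosen after seeing the depths, 23 of the 24 were called again (background 6.82% higher and 2.96% lower) and none lower. The 2 missing with Rarres2 and Mia alone were Cfap77 and Dnah2, and Dnah2 was the one missing with deeper spots; in each case the gene was below the filter there and was not tested.

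**Figure D1:**
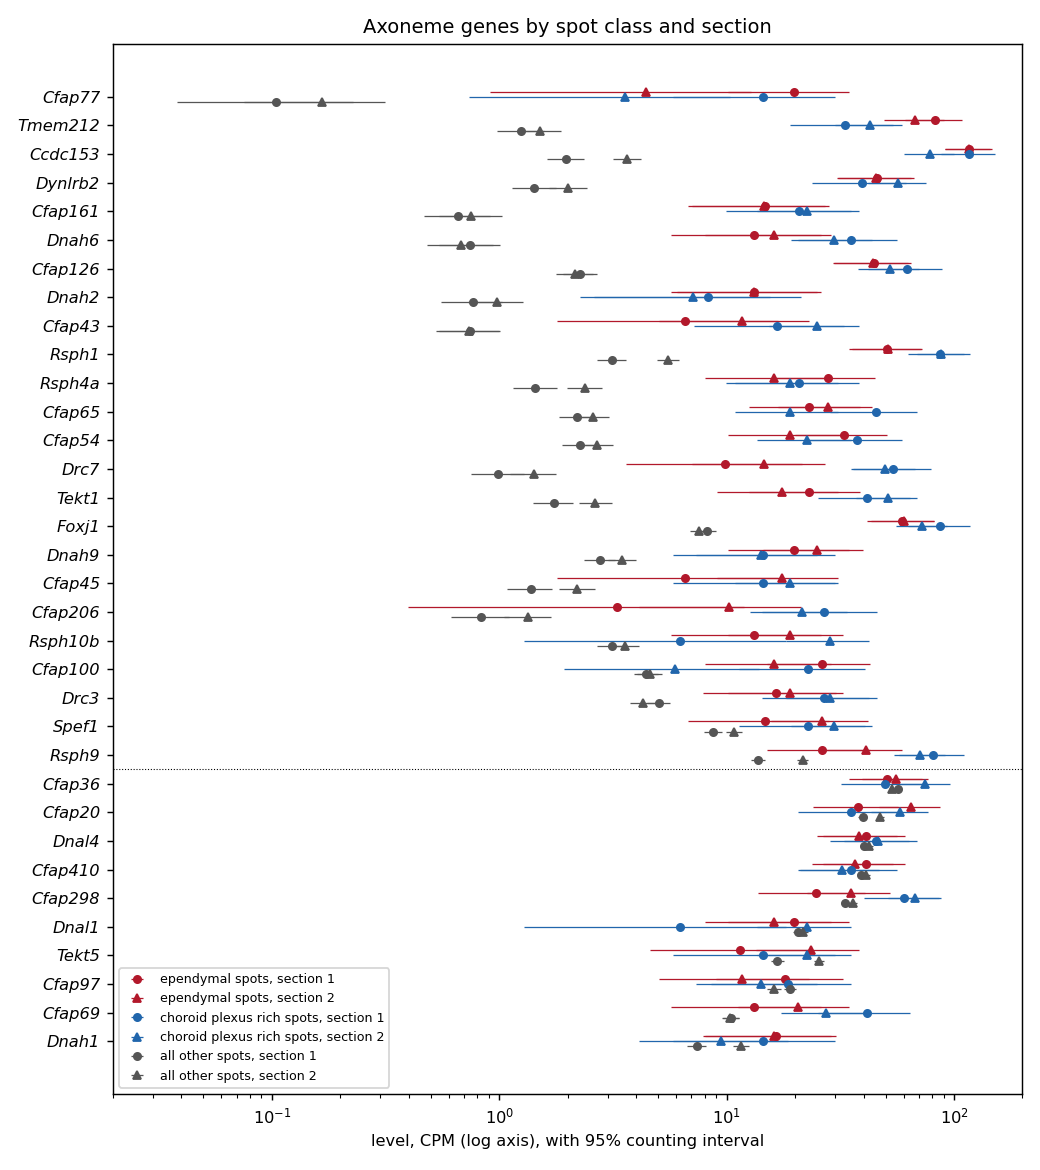
Levels (CPM, log axis) of the 24 genes called higher in ependymal spots (above the dotted line, ordered by their pooled ratio) and of the 10 other members with the most UMIs (below it). Red, blue and grey stand for ependymal, choroid plexus rich and all other spots, circles and triangles for sections 1 and 2, and lines for 95% counting intervals; Tmem212 lay at 82.2 and 67.5 CPM in ependymal spots, against 1.25 and 1.51 CPM in other spots, while Cfap36 lay between 49.7 and 74.7 CPM in all 3 classes.

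Foxj1, the regulator of the programme, had 59.2 and 60.1 CPM in ependymal spots of sections 1 and 2 (36 and 41 UMIs), 87.1 and 72.4 CPM in choroid plexus rich spots, and 8.17 and 7.58 CPM in all other spots. Both ciliated classes lay above the other spots in both sections. The log2 fold change, ependymal over other, was 2.95 ± 0.23 (SE, edgeR adjusted p 4.83e-07). Other spots, the most numerous class, held 83.1% of all Foxj1 UMIs.

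Ccdc153, a coiled-coil protein used as an ependymal marker in mouse, had 117 and 116 CPM in ependymal spots, 116 and 78.3 CPM in choroid plexus rich spots, and 1.96 and 3.66 CPM in other spots. The log2 fold change, ependymal over other, was 5.41 ± 0.29 (edgeR adjusted p 1.25e-08). Tmem212, a transmembrane protein likewise known as a marker of these cells, had 82.2 and 67.5 CPM in ependymal spots, 33.2 and 42.7 CPM in choroid plexus rich spots, and 1.25 and 1.51 CPM in other spots. Its log2 fold change was 5.78 ± 0.30 (edgeR adjusted p 1.25e-08). Neither gene's classes overlapped between ependymal and other spots. Even so, 53.4% of Ccdc153 UMIs and 51.0% of Tmem212 UMIs lay in other spots. At least 1 UMI of these 2 genes was found in 27 of 60 and 27 of 50 ependymal spots, and in 172 of 2946 and 252 of 2440 other spots.

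Among the 5 lighter dynein subunits, 4 were tested and only Dynlrb2 was called higher. DYNLRB2 is a roadblock-type light chain that cytoplasmic dynein can also carry. It had 46.0 and 45.5 CPM in ependymal spots, 39.4 and 56.9 CPM in choroid plexus rich spots, and 1.42 and 2.01 CPM in other spots, with a log2 fold change of 4.76 ± 0.34 (edgeR adjusted p 1.92e-07).

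The other lighter subunits were not called. Dnal4, a light chain, had 41.1 and 38.1 CPM in ependymal spots, 45.6 and 46.3 CPM in choroid plexus rich spots, and 40.2 and 42.4 CPM in other spots. Dnal1, a light chain of the outer arm, had 19.7 and 16.1 CPM in ependymal spots, against 20.7 and 21.6 CPM in other spots. The log2 fold changes were -0.04 ± 0.21 for Dnal4 and -0.22 ± 0.33 for Dnal1, and neither passed the test (edgeR adjusted p 0.943 and 0.765). Of the outer-arm intermediate chains, Dnaic1 had 4.93 and 17.6 CPM in ependymal spots, against 5.80 and 5.82 CPM in other spots, so that only section 2 was higher. The difference of 1.01 ± 0.48 on the log2 scale did not pass (edgeR adjusted p 0.237). Dnaic2 was below the filter.

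Of 11 dynein heavy chains, the motor subunits, 4 passed the filter and 3 were called higher. Dnah9, of the outer arm, had 19.7 and 24.9 CPM in ependymal spots, 14.5 and 14.2 CPM in choroid plexus rich spots, and 2.78 and 3.48 CPM in other spots, and rose by a log2 fold change of 2.86 ± 0.39 (edgeR adjusted p 0.000237). Dnah6, of the inner arms, had 13.1 and 16.1 CPM in ependymal spots, 35.2 and 29.7 CPM in choroid plexus rich spots, and 0.747 and 0.681 CPM in other spots, with a log2 fold change of 4.38 ± 0.58. Dnah2, also of the inner arms, was called with a log2 fold change of 3.94 ± 0.60 on 17 ependymal UMIs in all.

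Dnah1, an inner-arm heavy chain and the most counted of the 11, did not pass. It had 16.4 and 16.1 CPM in ependymal spots, 14.5 and 9.49 CPM in choroid plexus rich spots, and 7.38 and 11.6 CPM in other spots. The ependymal value was higher in both sections, but the log2 fold change of 0.81 ± 0.39 did not pass (edgeR adjusted p 0.239). With spots picked by Rarres2 and Mia alone it was 1.08 and passed (edgeR adjusted p 0.0454). Dnah7a had 7 ependymal UMIs and 390 elsewhere outside the choroid plexus rich spots, and its near-identical relative Dnah7b had 5 and 206, so reads may be divided between them. Dnah8, an outer-arm heavy chain known from testis, had 0 UMIs in ependymal and choroid plexus rich spots and 50 in the others.

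The less counted heavy chains did not reach the filter, though several were high where they could be counted. Dnah10 had 13.1 and 10.3 CPM in ependymal spots, against 0.521 and 0.442 CPM in other spots. Dnah11 had 4.93 and 8.80 CPM, against 0.643 and 0.368 CPM. Without the filter, Dnah10, Dnah11 and Dnah5 were called higher, with log2 fold changes of 4.53, 3.73 and 2.29. Each rested on 9 to 15 ependymal UMIs.

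Of 7 radial spoke genes, 4 were called higher and the other 3 were below the filter. Rsph1, of the spoke head, had 50.9 and 51.3 CPM in ependymal spots, 87.1 and 87.8 CPM in choroid plexus rich spots, and 3.13 and 5.54 CPM in other spots. Its log2 fold change was 3.60 ± 0.31 (edgeR adjusted p 1.78e-06). Rsph4a, another head protein, had 27.9 and 16.1 CPM in ependymal spots, 20.7 and 19.0 CPM in choroid plexus rich spots, and 1.44 and 2.37 CPM in other spots, with a log2 fold change of 3.55 ± 0.49. For both genes each ependymal sum was above each sum of the other spots.

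Rsph9, a further head protein, was shared more widely. It had 26.3 and 41.1 CPM in ependymal spots, 80.8 and 71.2 CPM in choroid plexus rich spots, and 13.8 and 21.6 CPM in other spots, which held 93.2% of its UMIs. Its log2 fold change of 0.97 ± 0.29 only just passed (edgeR adjusted p 0.0489) and failed in DESeq2 (adjusted p 0.099), in the top 4% of spots (0.42, edgeR adjusted p 0.358) and without the section term (edgeR adjusted p 0.248). Rsph10b rose by a log2 fold change of 2.26 ± 0.49 and lost its call without the section term (edgeR adjusted p 0.095). Rsph3a and Rsph3b, near-identical stalk genes, had 1 and 2 ependymal UMIs, and Rsph6a, known from sperm, had 0 in ependymal and choroid plexus rich spots and 40 in the others.

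In the nexin-dynein regulatory complex, Drc7 and Drc3 were called higher and Drc1 was below the filter. Drc7 had 9.86 and 14.7 CPM in ependymal spots, 53.9 and 49.8 CPM in choroid plexus rich spots, and 0.990 and 1.42 CPM in other spots, with a log2 fold change of 3.38 ± 0.57 (edgeR adjusted p 0.00134). Drc3 had 16.4 and 19.1 CPM in ependymal spots, 26.9 and 28.5 CPM in choroid plexus rich spots, and 5.04 and 4.31 CPM in other spots, with a log2 fold change of 1.96 ± 0.39. Drc1 had 11.5 and 14.7 CPM in ependymal spots, against 5.30 and 9.41 CPM in other spots.

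Tektins are filaments inside the wall of the outer microtubules. Tekt1 had 23.0 and 17.6 CPM in ependymal spots, 41.5 and 51.0 CPM in choroid plexus rich spots, and 1.74 and 2.65 CPM in other spots, and rose by a log2 fold change of 3.24 ± 0.45 (edgeR adjusted p 0.000237). Tekt5, known from sperm tails, had 11.5 and 23.5 CPM in ependymal spots, 14.5 and 22.5 CPM in choroid plexus rich spots, and 16.7 and 25.5 CPM in other spots. The Tekt5 difference of -0.24 ± 0.29 on the log2 scale did not pass (edgeR adjusted p 0.692), and 98.0% of its UMIs lay in other spots. Tekt2 and Tekt4 had 2 and 4 ependymal UMIs.

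Dynein assembly factors, which fold and assemble dynein arms in the cytoplasm, had few counts. Only Dnaaf2 of 5 passed the filter. It had 18.1 and 8.80 CPM in ependymal spots, against 7.45 and 8.25 CPM in other spots, and its log2 fold change of 0.78 ± 0.43 did not pass (edgeR adjusted p 0.316). Dnaaf4 and Dnaaf5 had 3 and 4 ependymal UMIs and ratios of 1.01 to the other spots. Dnaaf3 had 8.22 and 10.3 CPM in ependymal spots, against 0.817 and 1.01 CPM in other spots, and was called without the filter.

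The other Cfap and Spef genes formed the largest group. Of 32, 16 passed the filter and 10 were called higher. Cfap126, also called Flattop, had 44.4 and 44.0 CPM in ependymal spots, 62.2 and 52.2 CPM in choroid plexus rich spots, and 2.28 and 2.15 CPM in other spots, with a log2 fold change of 4.34 ± 0.32 (edgeR adjusted p 2.89e-07). Cfap161 (log2 fold change 4.39 ± 0.58) and Cfap45 (2.78 ± 0.55) are proteins inside the microtubule wall, Cfap54 (3.39 ± 0.43) belongs to the central apparatus, and Cfap43 (3.64 ± 0.69) to a complex that tethers inner dynein arms. Cfap65 (3.44 ± 0.46) and Cfap206 (2.69 ± 0.77), which belongs to a radial spoke, were called as well. Cfap206 and Cfap45 lost their calls without the section term (edgeR adjusted p 0.133 and 0.062). The remaining 3 of the 10, Cfap77, Cfap100 and Spef1, are described below.

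The highest ratio belonged to a gene with few counts. Cfap77 had 12 and 3 UMIs in ependymal spots (19.7 and 4.40 CPM), 7 and 3 UMIs in choroid plexus rich spots, and 6 and 9 UMIs in other spots (0.104 and 0.166 CPM). The pooled ratio was 86.7-fold, and the gene was below the filter, and so not tested, when ependymal spots were the top 1% or were picked by Rarres2 and Mia alone.

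Of the 16 Cfap and Spef genes below the filter, 9 were called higher without it, against a background of 2.77% of all genes tested. They were Cfap44, Cfap46, Cfap52, Cfap57, Cfap61, Cfap97d2, Cfap157, Cfap299 and Spef2. Their pooled ratios lay between 6.92 for Cfap46 and 21.3 for Cfap52, on 7 to 15 ependymal UMIs each. The other 7 were not called: Cfap47, Cfap53, Cfap58, Cfap70, Cfap74, Cfap221 and Cfap300. Cfap47 had 0 ependymal UMIs and 38 in other spots, and Cfap300 had 1 and 113. Dnah2os, by its name an antisense transcript of Dnah2, had 1 ependymal UMI and 39 in other spots, and whether the counting told the strands apart was not stated.

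None of the 5 most counted members was called in ependymal spots. These 5, Cfap36, Cfap20, Dnal4, Cfap410 and Cfap298, held 47.1% of the 52210 UMIs of all 71. Cfap36 had 50.9 and 55.7 CPM in ependymal spots, 49.7 and 74.7 CPM in choroid plexus rich spots, and 56.7 and 53.6 CPM in other spots. Cfap20, which sits inside the outer microtubules, had 37.8 and 64.5 CPM in ependymal spots, 35.2 and 58.1 CPM in choroid plexus rich spots, and 39.6 and 47.5 CPM in other spots. Cfap410 had 41.1 and 36.7 CPM in ependymal spots, 35.2 and 32.0 CPM in choroid plexus rich spots, and 38.9 and 41.0 CPM in other spots. For these 3 genes the counting intervals of ependymal and other spots overlapped in both sections. The log2 fold changes, ependymal over other, were -0.02 ± 0.19 for Cfap36, 0.26 ± 0.20 for Cfap20 and -0.02 ± 0.21 for Cfap410, and none passed (edgeR adjusted p 0.971, 0.502 and 0.977).

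Cfap298, which takes part in dynein arm assembly, and Cfap97 were also broad. Cfap298 had 24.7 and 35.2 CPM in ependymal spots, 60.1 and 67.6 CPM in choroid plexus rich spots, and 33.3 and 36.0 CPM in other spots. Cfap97 had 18.1 and 11.7 CPM in ependymal spots, against 19.1 and 16.2 CPM in other spots. Neither passed, with log2 fold changes of -0.18 ± 0.23 and -0.22 ± 0.32 (edgeR adjusted p 0.721 and 0.747). Cfap69 had 13.1 and 20.5 CPM in ependymal spots, 41.5 and 27.3 CPM in choroid plexus rich spots, and 10.5 and 10.4 CPM in other spots, and did not pass for ependymal spots (log2 fold change 0.74 ± 0.36, edgeR adjusted p 0.254).

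In all, 34 of the 71 members had over 90% of their UMIs in other spots. Of these 34, 3 were called higher in ependymal spots: Rsph9, Spef1 and Cfap100. Spef1, which binds central pair microtubules, had 14.8 and 26.4 CPM in ependymal spots, against 8.72 and 10.8 CPM in other spots (log2 fold change 1.11 ± 0.32, edgeR adjusted p 0.0472), and lost its call in DESeq2, without the filter, without the section term and in the top 4% of spots. Cfap100, of the inner-arm regulators, had 26.3 and 16.1 CPM in ependymal spots, against 4.43 and 4.60 CPM in other spots (log2 fold change 2.23 ± 0.45, edgeR adjusted p 0.00531), and lost its call without the section term (edgeR adjusted p 0.072). Of the 9 members whose level in other spots alone passed the filter, Rsph9 was the only one called higher.

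The level of the members was highest at the top of the order set by the definition genes. Summed over all 71 and given by bins of spots, they had 409 and 451 CPM in the lower 75% of spots of sections 1 and 2, 424 and 473 CPM in the top 10 to 25%, 442 and 489 CPM in the top 5 to 10%, 445 and 482 CPM in the top 2 to 5%, 601 and 580 CPM in the top 1 to 2%, and 1707 and 2015 CPM in the top 1%. Choroid plexus rich spots had 1536 and 1463 CPM. The 37 members with at most 90% of their UMIs in other spots, a set picked on these values, had 52.1 and 58.8 CPM in the lower 75%, 57.5 and 68.7 CPM in the top 10 to 25%, 57.4 and 80.3 CPM in the top 5 to 10%, 88.9 and 89.5 CPM in the top 2 to 5%, 237 and 177 CPM in the top 1 to 2%, and 1198 and 1393 CPM in the top 1%. The top 1% and the top 1 to 2% are the ependymal spots that the pick of these members used, so their excess there was set by the pick. In the top 2 to 5%, which belong to the other spots, their counting intervals lay above those of the lower 75% in both sections. Foxj1 had 8.03 and 7.27 CPM in the lower 75%, 22.4 and 12.4 CPM in the top 2 to 5%, 14.4 and 16.6 CPM in the top 1 to 2% (4 and 6 UMIs) and 96.8 and 110 CPM in the top 1%, so that below the top 1% its bins followed no steady order in section 1. Ccdc153 had 1.82 and 3.19 CPM, 2.40 and 10.9 CPM, 28.8 and 30.4 CPM, and 191 and 213 CPM in the same bins. Tekt5 had 9.08 and 21.9 CPM in the top 1%, beside 17.7 and 26.1 CPM in the lower 75%, and Cfap36 39.3 and 53.2 CPM, beside 56.6 and 52.7 CPM.

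The ependymal spots were uneven. Between 0 and 38 members had a UMI per ependymal spot of section 1 (median 5.5) and between 1 and 34 in section 2 (median 8.5). The 10 richest ependymal spots held 61.0% and 67.2% of the ependymal UMIs of the same 37 members. No UMI of these 37 was found in 19 of the 60 ependymal spots of section 1 and in 8 of the 50 of section 2.

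**Figure D2:**
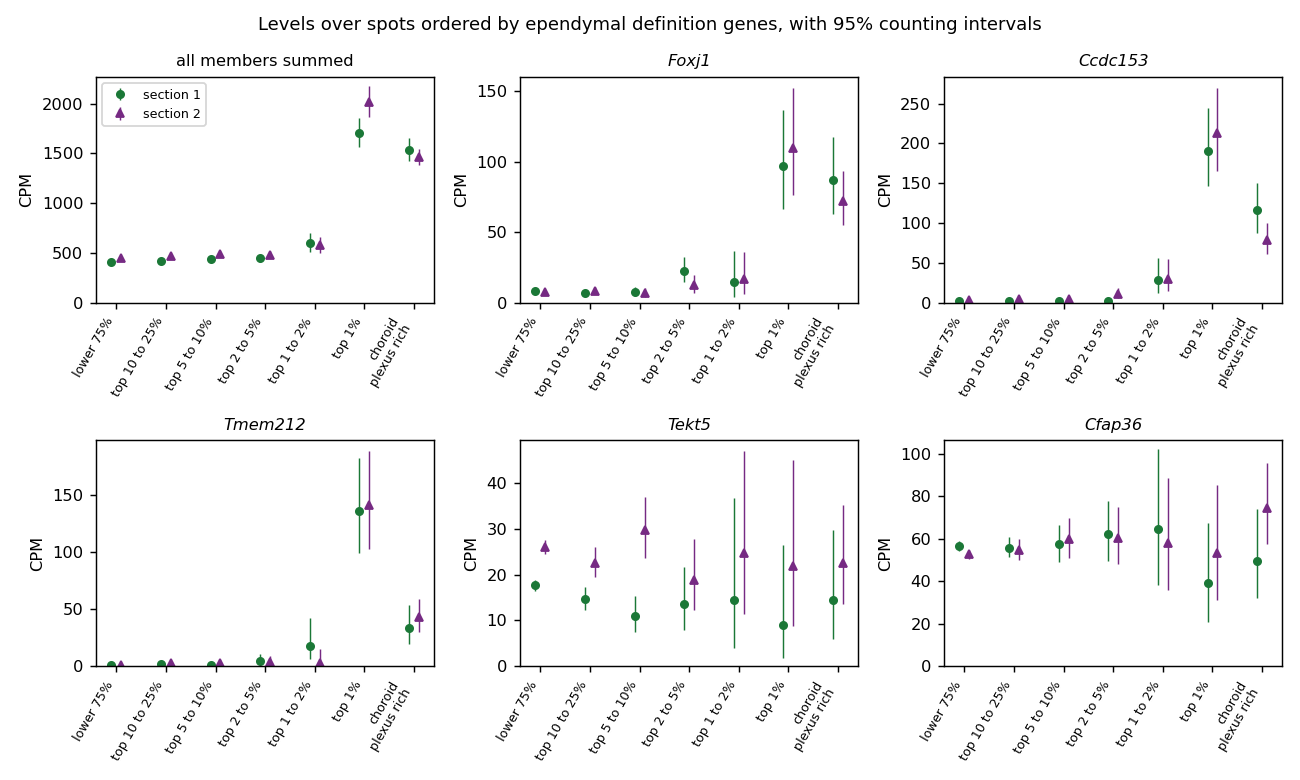
Levels (CPM) over spots of each section ordered by the 12 definition genes, from the lower 75% to the top 1%, with choroid plexus rich spots at the right; circles are section 1, triangles section 2, and lines 95% counting intervals. The sum of all 71 members reached 1707 and 2015 CPM in the top 1%, while Tekt5 (9.08 and 21.9 CPM) and Cfap36 (39.3 and 53.2 CPM) had no peak there.

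In choroid plexus rich spots, 27 of the 71 were called higher than in other spots and none lower, against backgrounds of 12.3% and 9.16%. Without the filter 42 were called higher and none lower, against 5.98% and 6.3%. This comparison and the one of ependymal spots use the same other spots. Markers of other cells differed here too: 11 of 14 neuronal and 6 of 12 astrocyte markers were called lower (1 astrocyte marker higher), and 4 of 9 oligodendrocyte and 5 of 7 tested vascular leptomeningeal markers higher. Their part in the result was not tested. Among the called genes were Cfap298 (log2 fold change, choroid plexus rich over other, 1.07 ± 0.19; ependymal over other, -0.18 ± 0.23), Cfap69 (1.84 ± 0.30 and 0.74 ± 0.36) and Dnaic1 (1.46 ± 0.46 and 1.01 ± 0.48). The largest log2 fold changes among the 27 were 6.04 ± 1.09 for Cfap77, 5.67 ± 0.45 for Dnah6 and 5.60 ± 0.37 for Drc7.

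Compared directly, 0 of the 71 were called higher in ependymal than in choroid plexus rich spots and 3 lower, against backgrounds of 1.13% and 3.86%. Only 36 of the 71 were tested, and so few calls are no result about the members as a set. The 3 were Drc7 (log2 fold change -2.21 ± 0.45, edgeR adjusted p 0.0068), Rsph9 (-1.28 ± 0.30, edgeR adjusted p 0.0191) and Cfap298 (-1.25 ± 0.27, edgeR adjusted p 0.00942). For each of them both ependymal sums lay below both choroid plexus rich sums, and the share of all genes for which this holds is not given. Between these classes 7 of 9 oligodendrocyte and 4 of 12 astrocyte markers were called higher in ependymal spots and 2 of 7 vascular leptomeningeal markers lower, and their part was not tested. This count depended on how ependymal spots were picked. With the top 1% it was 0 lower (background 2.48%) and 1 higher (0.976%), Tmem212, at a log2 fold change of 1.69 ± 0.31 (edgeR adjusted p 0.00376). With the top 4% it was 19 lower (6.55%) and 0 higher (3.22%). Foxj1 (-0.56 ± 0.23) and Ccdc153 (0.16 ± 0.29) passed in neither direction in the 2% setting. The classes were set by expression, and a spot can hold both tissues.

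**Figure D3:**
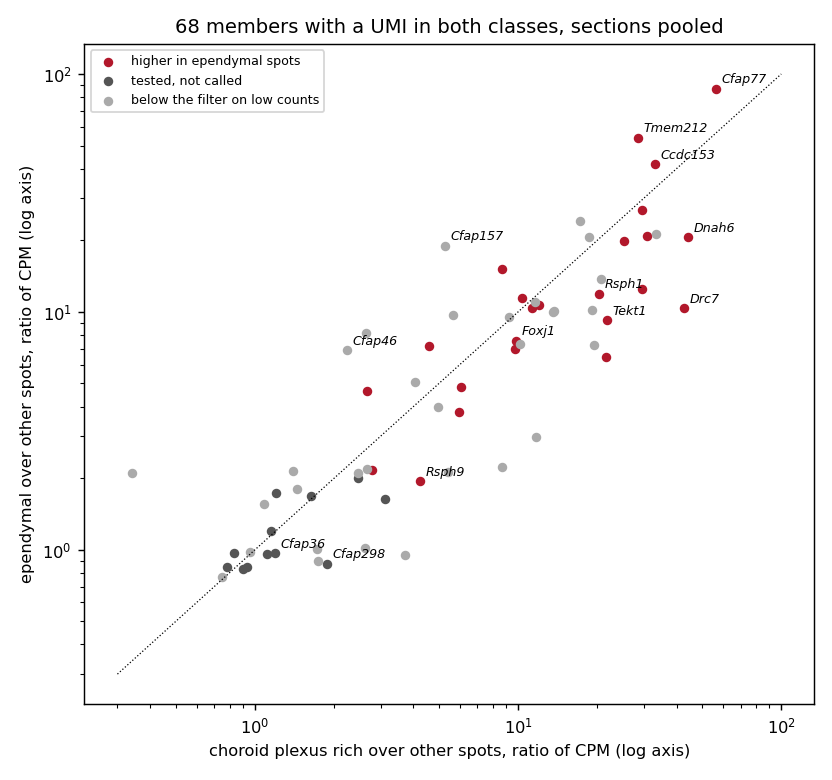
Ratio of CPM to the other spots in ependymal spots (vertical) and in choroid plexus rich spots (horizontal), both on log axes, for the 68 members with a UMI in both classes, sections pooled. The dotted line marks equal ratios; Drc7 lay to the right of it, at 10.4 and 42.8, and Tmem212 to the left, at 54.1 and 28.5.

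Genes of the pathway outside the 71 were described from fixed lists. Of 52 other axoneme genes, 22 passed the filter, which favoured genes high in these spots, and 17 were called higher in ependymal spots and none lower, against backgrounds of 5.65% and 1.98%. Without the filter 26 of the 52 were called higher (background 2.77%) and none lower. They included Ak7 (26.3 and 17.6 CPM in ependymal spots, against 0.452 and 0.755 CPM in other spots), Dnali1, an inner-arm light intermediate chain (34.5 and 23.5 CPM, against 0.747 and 1.07 CPM), Iqca, and Hydin of the central pair. Of 14 regulators of the cilium programme, 7 were tested and 2 called higher, Rfx2 (14.8 and 7.33 CPM in ependymal spots, against 2.54 and 2.98 CPM in other spots) and E2f5 (log2 fold change 1.17 ± 0.34). Of 11 symbols on a list of other dynein assembly genes, 9 were in the data and 4 were tested. Zmynd10 was called higher (2.72 ± 0.44).

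Of the transport genes, which motile and primary cilia share, 1 in each list was called higher in ependymal spots, a share near the background of 5.65% and no result about these lists. Of 37 intraflagellar transport and Bardet-Biedl genes, 30 were tested and only Ift27 was called higher (90.4 and 66.0 CPM in ependymal spots, against 54.0 and 47.1 CPM in other spots; log2 fold change 0.65 ± 0.17). Of 21 cytoplasmic dynein and dynactin genes, 20 were tested and only Nde1 was called higher (0.83 ± 0.24). Without the filter, 1 of the 37 and 0 of the 21 were called higher (background 2.77%), and 0 and 1 lower (2.08%). In choroid plexus rich spots, 10 of the 30 intraflagellar transport genes were called higher and 1 lower, and 1 of the 20 cytoplasmic dynein genes higher and 4 lower, against backgrounds of 12.3% and 9.16%.

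Members present elsewhere were then compared among regions of the other spots. The regions were 11 clusters with at least 30 spots in each section, made from genes that include no member, and they are called by number and leading gene. Of 44 members tested, 20 differed among regions, against a background of 58.0% of 7032 genes tested, so a smaller share of the members than of all genes was called. Ccdc153 and Tmem212 did not pass (edgeR adjusted p 0.519 and 0.655), and neither did Dynlrb2 (0.479) or Rsph1 (0.166).

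Set against the mean of the other regions, the 44 members were called as follows. In region 1, 3 were higher (background 7.03%) and 0 lower (5.86%), and in region 2, 1 was higher (9.5%) and 1 lower (7.08%). In region 3, 4 were higher (16.2%) and 4 lower (15.2%), and in region 4, 1 was higher (12.4%) and 3 lower (7.96%). Region 5 had 8 higher (8.02%) and 0 lower (6.7%), region 6 had 3 higher (12%) and 1 lower (8.52%), and region 7 had 1 higher (11.7%) and 0 lower (8.49%). Region 8 had 1 higher (10.9%) and 2 lower (7.2%), region 14 had 0 of either (5.33% and 4.32%), region 15 had 6 higher (13.4%) and 4 lower (11.3%), and region 16 had 1 higher (4.25%) and 0 lower (2.79%). Read against these shares of 44, region 5 had more higher calls than the background, and most other regions had fewer.

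**Figure D4:**
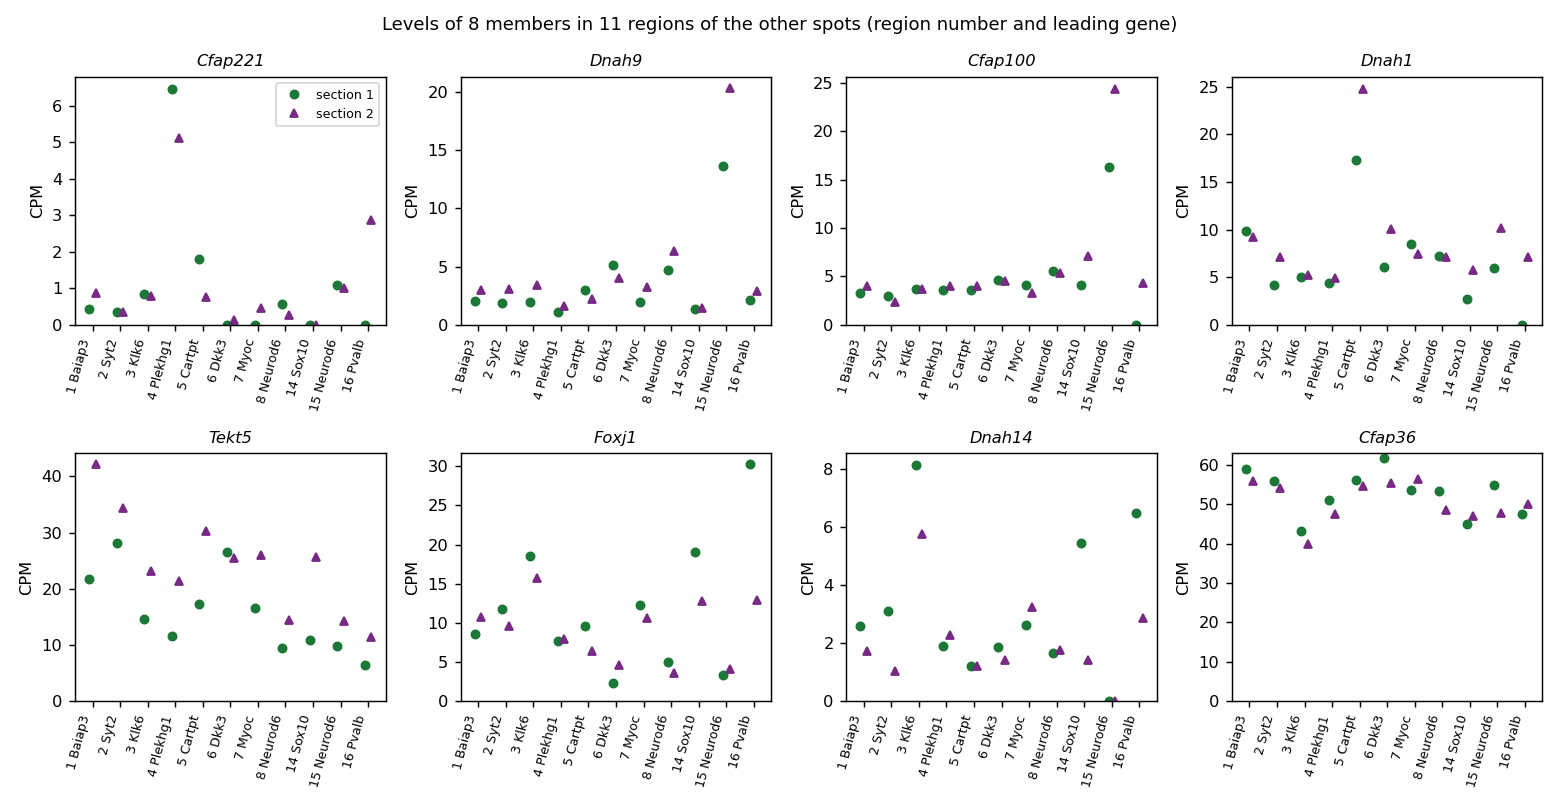
Levels (CPM) of 8 members in the 11 regions of the other spots, each named by its number and leading gene; circles are section 1 and triangles section 2. Cfap221 stood highest in region 4 in both sections (6.47 and 5.11 CPM), Dnah9 and Cfap100 in region 15, and Dnah1 in region 5.

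Cfap221, of the central apparatus, was higher in region 4, led by Plekhg1, Amotl1, Pdp1 and Rora. It had 6.47 and 5.11 CPM there (41 and 29 UMIs), against 0.467 and 0.591 CPM in the other regions, a log2 fold change of 3.85 ± 0.38 (edgeR adjusted p 4.98e-11). It had 3 ependymal UMIs in all. Its span overlaps that of Sctr, and whether the counting used strand was not stated, so reads of these genes may be mixed. The same holds for 11 other members whose span overlaps a further protein-coding gene, among them Cfap36 with Ppp4r3b, Rsph9 with Mrps18a, Rsph1 with Ubash3a, Drc3 with Tom1l2 and Dnaic1 with Enho.

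Region 15, led by Neurod6, Wipf3 and Rprml, was higher in Dnah9 and Cfap100. Dnah9 had 13.6 and 20.3 CPM there, against 2.27 and 3.12 CPM in the other regions (log2 fold change 2.72 ± 0.30, edgeR adjusted p 1.13e-09). It was also higher in region 8, led by the same Neurod6 and Wipf3 (1.01 ± 0.29), and lower in region 4 (-1.20 ± 0.36). Cfap100 had 16.3 and 24.4 CPM in region 15, against 3.69 and 4.10 CPM (log2 fold change 2.31 ± 0.27, edgeR adjusted p 3.75e-09). The ependymal definition genes summed to 51.2 and 41.7 CPM in region 15, beside 47.2 and 53.5 CPM in all other spots together. The spots richest in these genes had been taken out before the regions were made, which limits this sum in every region. The part of ependymal RNA in the levels of members by region was not tested. Dnal4 (0.71 ± 0.12), Dnal1 (0.75 ± 0.21) and Cfap298 (0.57 ± 0.13) were also higher there by smaller steps. Dnah14 and Dnaic2 had 0 UMIs in region 15, which held 1835140 and 983819 UMIs.

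Region 5, led by Cartpt, Baiap3 and Hap1, had the most members called higher, 8 of the 44. Dnah1 had 17.3 and 24.8 CPM there, against 6.19 and 7.59 CPM in the other regions (log2 fold change 1.76 ± 0.17, edgeR adjusted p 1.07e-10). Rsph4a had 6.56 and 5.76 CPM, against 1.36 and 1.45 CPM (2.05 ± 0.35), and Drc1 had 7.16 and 13.7 CPM, against 3.80 and 6.49 CPM (1.06 ± 0.19). Rsph9 was higher by 0.89 ± 0.14, and Dnah7a by 1.24 ± 0.30. The definition genes summed to 51.9 and 62.6 CPM in region 5. Dnah7a was also higher in region 1, led by Baiap3 and Calb2, with 7.51 and 6.09 CPM, against 2.29 and 3.63 CPM.

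Tekt5 was higher in region 2, led by Syt2, Vamp1 and Pvalb, with 28.1 and 34.4 CPM, against 15.7 and 26.6 CPM (log2 fold change 0.91 ± 0.13, edgeR adjusted p 5.53e-07). It was higher in region 1 (21.8 and 42.3 CPM, against 17.7 and 24.8 CPM; 0.80 ± 0.12) and lower in regions 8 (-0.68 ± 0.18) and 15 (-0.70 ± 0.26).

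Foxj1 itself differed among regions. In region 3, led by Klk6 and Gjb1, it had 18.5 and 15.7 CPM, against 9.18 and 7.29 CPM in the other regions (log2 fold change 1.12 ± 0.18, edgeR adjusted p 2.87e-06). The oligodendrocyte markers summed to 27557 and 25196 CPM there, and the definition genes to 43.1 and 47.5 CPM. Region 14, led by Sox10 and Ugt8a and likewise rich in these markers, had 19.1 and 12.8 CPM of Foxj1 and was not called. In region 16, led by Pvalb and Lgi2, Foxj1 had 30.2 and 12.9 CPM on 14 and 9 UMIs (1.32 ± 0.36). Foxj1 was lower in region 6 (2.33 and 4.54 CPM), region 8 (4.99 and 3.54 CPM) and region 15 (3.27 and 4.07 CPM). The part of oligodendrocytes in its level in region 3 was not tested.

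Region 3 was also higher in Dnah14, a heavy chain, with 8.12 and 5.74 CPM, against 2.38 and 1.64 CPM (log2 fold change 2.26 ± 0.34), in Spef2 (1.83 ± 0.48) and in Dnaic2 (1.40 ± 0.43). It was lower in Cfap36, with 43.1 and 39.9 CPM, against 55.2 and 53.0 CPM (-0.28 ± 0.09), although Cfap36 missed the test over all regions (edgeR adjusted p 0.0504). Across the 11 regions Cfap36 lay between 39.9 and 61.8 CPM.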

How the data were processed

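The deposited values are raw UMI counts per gene and spot, made by the authors with Space Ranger 1.2.2 for section 1 and 2.0.1 for section 2, per the file headers, although mm10 and version 2.0.1 are given for both in the submitters' processing notes. A difference between versions cannot be told apart from the section. The annotation release was not stated, and spot positions were not used. The members, gene lists and tests were chosen with earlier results of these data known.

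Spots with at least 500 UMIs were kept, classed by the 12 and 13 definition genes, and counts summed per section and class, since spots are not replicates. The sums were fitted with edgeR 4.0.16 (R 4.3.3; TMM, filterByExpr, a section term, quasi-likelihood tests; residual degrees of freedom 2, prior 14.2), leaving out the definition genes. The SE is the log2 fold change divided by the square root of F. The section term pairs classes of the same section, as the sections are the labelled replicates. Regions were Leiden clusters (leidenalg 0.10.2, resolution 1) of the other spots from a random 15980 genes without members or listed genes, tested on the rest (10 residual degrees of freedom); 8 further clusters with 1109 spots were not tested. Doublets were not called, because several cells can lie under a spot. Intervals are exact Poisson intervals at 95% and cover counting error only.

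Named members were Foxj1, Ccdc153, Tmem212, Dynlrb2, the 3 most counted of each role and the 10 most counted with over 90% of UMIs elsewhere or not called; other members were named where their counts bear on a group. From each list up to 4 called genes, and the 5 unlisted genes with the largest rise, were named. The alternatives were DESeq2 1.42.0, library totals without TMM, no filter, no section term, other UMI minimums, other ependymal cut-offs and other clusterings. The steps were tested on simulated data. 1 listed oligodendrocyte marker is not reported here and is left out of that list's sums and counts. Of the members, 69 of 71 matched RefSeq.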

Additional observations from a re-analysis of the deposited data

How the results depend on the processing

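The 24 calls in ependymal spots (background 5.65%) became 22 with DESeq2, 24 without TMM, 36 without the filter (background 2.77%) and 31 with the top 1% or top 4% of spots. They became 18 with no replicate block (no section term) and 45 with choroid plexus rich spots not set apart, when those spots joined the ependymal class. Where no background is given here, the share of all genes was not worked out, so those changes in number are not results about the members. Calls in choroid plexus rich spots were 42 without the filter (more genes tested), against 27. Members lower in ependymal than in choroid plexus rich spots numbered 3, and 5 without the filter, 6 at 5000 UMIs per spot (added after seeing the data), 0 with the top 1% (1 higher), 19 with the top 4% and 7 with Rarres2 and Mia alone. Among regions 20 members were called, and 13 without the replicate block. For that setting, and for the 5, 6 and 7 members just given, no share of all genes was worked out. Of 274 refits of 23 named members, ratios of single sections included, 253 were rated as the same. This rating did not count changes of sign in ratios of single sections, which are given below. A call was gained in 3 and lost in 4, and 14 fits of both sections changed sign. All 14 concerned members not called in the report. They were Dnal4 (0.0039 at 1000 UMIs, 0.042 at 5000 UMIs, 0.048 in the top 1%, 0.070 in the top 4%, 0.0091 with choroid plexus rich spots not set apart), Cfap36 (0.059 in the top 4%, 0.058 not set apart), Cfap20 (-0.19 with Rarres2 and Mia), Cfap410 (0.068 at 5000 UMIs, 0.13 in the top 4%, 0.16 with Rarres2 and Mia) and Cfap298 (0.25 in the top 1%, 0.12 with Rarres2 and Mia, 0.60 not set apart, edgeR adjusted p 0.0111 there), as log2 fold changes of ependymal over other spots. The cause was not tested. With 1 section left out no residual degrees of freedom remain, so these ratios carry no test, although they are among the 274. Counts of calls were not given for them, and the values per section stand in the report. Outside the 14, and rated among the 253, their sign differed from the main fit for Dnaic1 (-0.02), Cfap20 (-0.04), Dnal4 (0.06) and Cfap410 (0.11) in section 1. In section 2 it differed for Cfap36 (0.07). Depth limits the members below the filter, most of which had under 16 ependymal UMIs.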

Other observations

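Outside the lists, the 5 unlisted genes with the largest rise in ependymal spots were Calml4, Gm19935, 1110017D15Rik, Lbp and 1700088E04Rik. Calml4, a calmodulin-like protein, had 59.2 and 71.9 CPM in ependymal spots, against 3.42 and 4.40 CPM in other spots (log2 fold change 4.10 ± 0.28, edgeR adjusted p 1.32e-07). Lbp, the lipopolysaccharide-binding protein, had 52.6 and 36.7 CPM, against 4.80 and 3.63 CPM. These genes were called in the same spots as the axoneme genes, and no relation between them was tested.

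Among clusters of other spots too unevenly filled to test, cluster 18 had 15.2 and 13.5 CPM of Dnah9 in sections 1 and 2 (44 and 22 spots). Cluster 10 of section 1 (26 spots) had 17.5 CPM of Ccdc153 and 21.9 CPM of Tmem212, with definition genes at 87.5 CPM and choroid plexus genes at 175 CPM. It held only 228567 UMIs of all genes in that section, so these values rest on few UMIs. In section 2 the same cluster (190 spots) had 2.61 and 1.42 CPM of Ccdc153 and Tmem212.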
